A study of Mus musculus with 2 samples.

Results

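The mRNAs described here encode 6 proteins taken as candidates for contact between a mouse oocyte and the granulosa cells around it. They are the connexins Gja4 (connexin 37), Gja1 (connexin 43) and Gjc1 (connexin 45), the cadherins Cdh1 (E-cadherin) and Cdh2 (N-cadherin), and the receptor tyrosine kinase Kit. They were chosen by symbol, with earlier results of these data known. All 6 were found by Ensembl identifier among 18017 genes with counts, out of 36227 genes in the deposited table.

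The study compared mature oocytes of slimming and control mothers, all female ICR mice, an outbred strain. All of the mothers grew up in a standard laboratory setting and were obese at 12 weeks of age. The slimming mothers then spent 4 weeks in enriched-environment cages, while the control mothers, labelled as fed a standard diet, stayed in normal cages. At 16 weeks, naturally ovulated oocytes at metaphase II were collected from 3 mothers per group, 3 oocytes per mother, and the 9 oocytes of each group were lysed together and sequenced as 1 slimming and 1 control library. With 1 library per group there is no replicate, so each difference describes these 2 libraries and not the conditions, and no test of the groups was made. Within a pool of 9 oocytes, fewer oocytes carrying an mRNA and less of it per oocyte cannot be told apart. The same holds for any other cells in the pools.

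In a growing follicle, granulosa cells reach the oocyte with fine projections that cross the zona pellucida and end in junctions on its surface. Gap junctions at these contacts are made of connexins and pass small molecules such as nucleotides and amino acids between the cells. In mice the junctions on the oocyte side depend on connexin 37, while granulosa cells join each other mainly through connexin 43. Cadherins hold neighbouring cells together through like molecules on both surfaces, and catenins tie them to actin inside. Kit binds Kit ligand, which granulosa cells make, and drives oocyte growth in mice.

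The depth was 20947962 counts in slimming oocytes, with 15831 genes detected, and 20242289 counts in control oocytes, with 16466 genes detected. The oocyte genes Gdf9, Mos and Oosp1 led the list of oocyte markers, whose 12 genes summed to 62818 CPM (counts scaled to a library total of 1000000) in slimming oocytes and 60547 CPM in control oocytes. The libraries thus held the markers of the labelled cell type. A count of 0 in a library allows up to 3 counts, which is 0.143 CPM in slimming oocytes and 0.148 CPM in control oocytes. A gene was called expressed at 10 CPM or more in either library, and 5714 genes were. Of these, 4.67% were at least 2-fold apart between the libraries, 2.73% higher and 1.94% lower in slimming oocytes. Intervals below are exact 95% intervals and cover counting error only.

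Among the contact genes, Gja4 and Cdh1 were abundant, Kit and Gjc1 were low, and Gja1 and Cdh2 were close to absent in both libraries. All 6 had at least 1 count in each library, and 3 of them (Gja4, Cdh1 and Kit) were called expressed. Together they summed to 562 CPM in slimming oocytes and 476 CPM in control oocytes. None of the 6 was called 2-fold apart between the libraries (0 genes). The share of 4.67% among expressed genes is a background for Gja4, Cdh1 and Kit only. With no filter, 17.7% of genes with counts were at least 2-fold higher and 20.9% lower in slimming oocytes. Among the 6, Gja4 was the 1 gene whose counting interval excluded a ratio of 1, and it was higher in slimming oocytes. Such an interval above 1 is common at this depth, with 37.7% of expressed genes having one.

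Gja4 (ENSMUSG00000050234, chromosome 4), the connexin of the oocyte's own gap junctions, had 6020 counts in slimming oocytes and 4249 counts in control oocytes. These are levels of 287 CPM in slimming oocytes and 210 CPM in control oocytes, which placed the gene at rank 623 by CPM in slimming oocytes and rank 830 in control oocytes among expressed genes. After TMM scaling, which assumes that most genes are equal between libraries, and with 0.5 added to each count, Gja4 was 1.34-fold higher in slimming oocytes (log2 ratio 0.42, interval 0.36 to 0.48). The authors' deposited table marks Gja4 at its p-value threshold of 0.001, which compares the reads of the 2 libraries. It so marks 1 of the 6 contact genes, and 35.9% of all genes with a deposited p-value.

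The difference in Gja4 lay inside the spread seen for other genes of like level. Of 955 genes with a mean level within 2-fold of that of Gja4, the middle 90% had log2 ratios between -0.47 and 0.52. Gja4 also has a short exonic length, 1685 bases, and short genes tended to be higher in slimming oocytes. With expressed genes in 5 equal groups by exon length, the median log2 ratio was 0.15 for the shortest genes, up to 2476 bases, and -0.08 for the longest, from 8098 bases. With the median of its own length group subtracted, the log2 ratio of Gja4 was 0.27. The part of transcript length in the difference was otherwise not tested.

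Gjc1 (ENSMUSG00000034520, chromosome 11), a connexin better known from smooth muscle and the early heart, had 202 counts in slimming oocytes and 174 counts in control oocytes. Its levels of 9.64 CPM in slimming oocytes and 8.60 CPM in control oocytes were just short of the 10 CPM that counts as expressed. The log2 ratio was 0.13, and its interval of -0.17 to 0.44 included equal levels.

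Gja1 (ENSMUSG00000050953, chromosome 10), the main connexin between granulosa cells, had 1 count in slimming oocytes and 1 count in control oocytes. Both values are below the 3 counts that a count of 0 allows, so no ratio is given. The upper ends of the counting intervals were 0.266 CPM in slimming oocytes and 0.275 CPM in control oocytes.

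Gja4 made up nearly all connexin counts in both libraries. Of 20 connexin genes looked up, 10 had counts in at least 1 library. Gja4 held 94.6% of the 6364 connexin counts of the slimming library (interval 94.0 to 95.1) and 93.3% of the 4552 of the control library (92.6 to 94.1). Gjc1 came next with 3.17% of the slimming and 3.82% of the control connexin counts. Gjb1 (connexin 32), best known from liver and myelinating cells, held 1.87% in slimming oocytes and 2.22% in control oocytes. These shares do not depend on the scaling between libraries. Counted per base of exon, the share of Gja4 was 96.8% in slimming oocytes and 96.0% in control oocytes. The hemichannel gene Panx1, named after its value was seen, was low, at 3.29 CPM in slimming oocytes and 2.52 CPM in control oocytes.

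Cdh1 (ENSMUSG00000000303, chromosome 8), the epithelial cadherin that oocytes also carry, had 5018 counts in slimming oocytes and 4713 counts in control oocytes. Its levels of 240 CPM in slimming oocytes and 233 CPM in control oocytes were the closest of any contact gene with more than a few counts. The log2 ratio was 0.01 (interval -0.05 to 0.07), and its sign turned with upper-quartile scaling, which gave -0.04. Its rank among expressed genes was 753 in slimming oocytes and 754 in control oocytes.

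Cdh2 (ENSMUSG00000024304, chromosome 18), the neural cadherin that granulosa cells make, had 4 counts in slimming oocytes and 7 counts in control oocytes. The levels were 0.191 CPM in slimming oocytes and 0.346 CPM in control oocytes. The log2 ratio of -0.82 had an interval of -3.11 to 1.09, so a difference in either direction was not detectable at this depth.

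The rest of the cadherin family was led by a gene outside the contact set. Of 12 cadherin genes looked up, 9 had counts. Cdh1 held 71.5% of the cadherin counts in slimming oocytes (interval 70.4 to 72.5) and 75.2% in control oocytes (74.1 to 76.3). Cdh4 (R-cadherin), a cadherin studied mostly in retina and brain, was second with 19.6% in slimming oocytes and 16.4% in control oocytes. It stood at 65.8 CPM in slimming oocytes and 50.7 CPM in control oocytes, a log2 ratio of 0.34 (0.23 to 0.46). Cdh13 (T-cadherin), which is held to the membrane by a lipid anchor, had 13.3 CPM in slimming oocytes and 9.58 CPM in control oocytes, a log2 ratio of 0.44 (0.17 to 0.72). Cdh13 was called expressed through its slimming level alone. Set against each other within each library, there were 3.64 Cdh1 counts per Cdh4 count in slimming oocytes and 4.59 in control oocytes, a ratio 0.793 times as large in slimming oocytes (0.724 to 0.868).

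**Figure D1:**
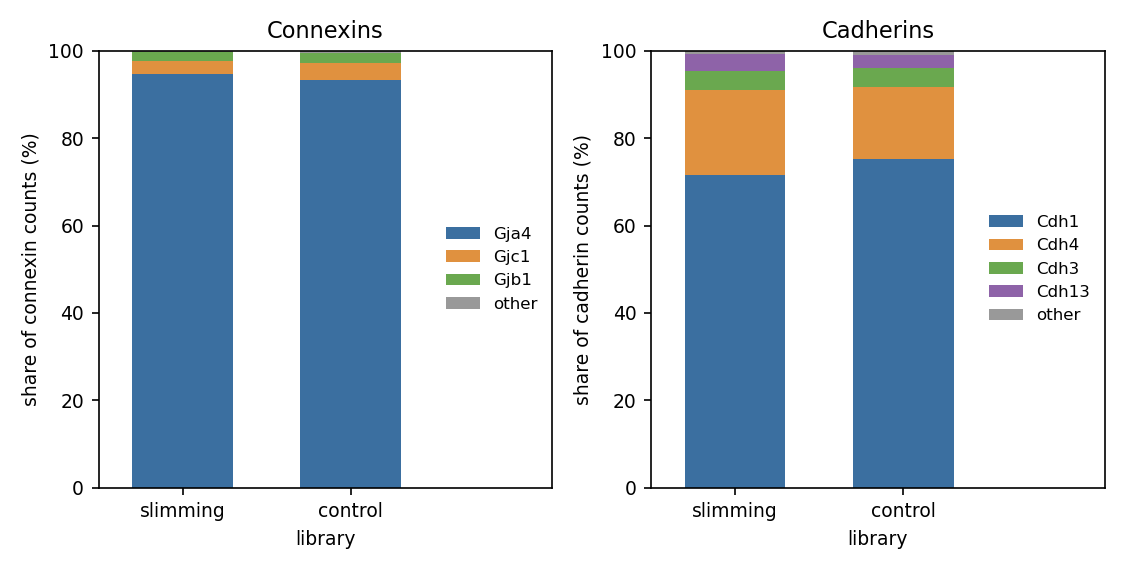
Stacked bars show the share of connexin counts (left) and cadherin counts (right) held by the named genes in the slimming and the control library, in percent, with the remaining genes of each family in grey. Gja4 holds 94.6% of the slimming and 93.3% of the control connexin counts, and Cdh1 71.5% of the slimming and 75.2% of the control cadherin counts.

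Kit (ENSMUSG00000005672, chromosome 5), the receptor for Kit ligand, had 537 counts in slimming oocytes and 482 counts in control oocytes. Its levels were 25.6 CPM in slimming oocytes and 23.8 CPM in control oocytes, at rank 3631 among expressed genes in each. The log2 ratio was 0.07 with an interval of -0.10 to 0.26, which included equal levels. Counts per gene do not separate the full receptor from the truncated Kit form described in mouse spermatids. Kitl, the ligand of Kit, which granulosa cells make, had 39 counts in slimming oocytes and 25 counts in control oocytes. Those are 1.86 CPM in slimming oocytes and 1.24 CPM in control oocytes, and the log2 ratio of 0.55 had an interval of -0.20 to 1.35.

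Levels of different genes were compared per kb of exon. Gja4 led with 171 CPM per kb in slimming oocytes and 125 CPM per kb in control oocytes. Cdh1 followed with 52.4 CPM per kb in slimming oocytes and 50.9 CPM per kb in control oocytes, and Kit with 2.88 in slimming oocytes and 2.67 in control oocytes. Gjc1 was below Kit, with 1.93 CPM per kb in slimming oocytes and 1.72 in control oocytes. The counting intervals of these 4 genes did not overlap within either library. Cdh2, with 0.0237 CPM per kb in slimming oocytes and 0.0429 in control oocytes, and Gja1, with 0.00465 in slimming oocytes and 0.00482 in control oocytes, came last, and their intervals overlapped in each library. How evenly the oligo(dT)-primed cDNA covers long transcripts is not given in the sources used here, so levels per length of long genes such as Kit (8911 exon bases) may be too low relative to Gja4.

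**Figure D2:**
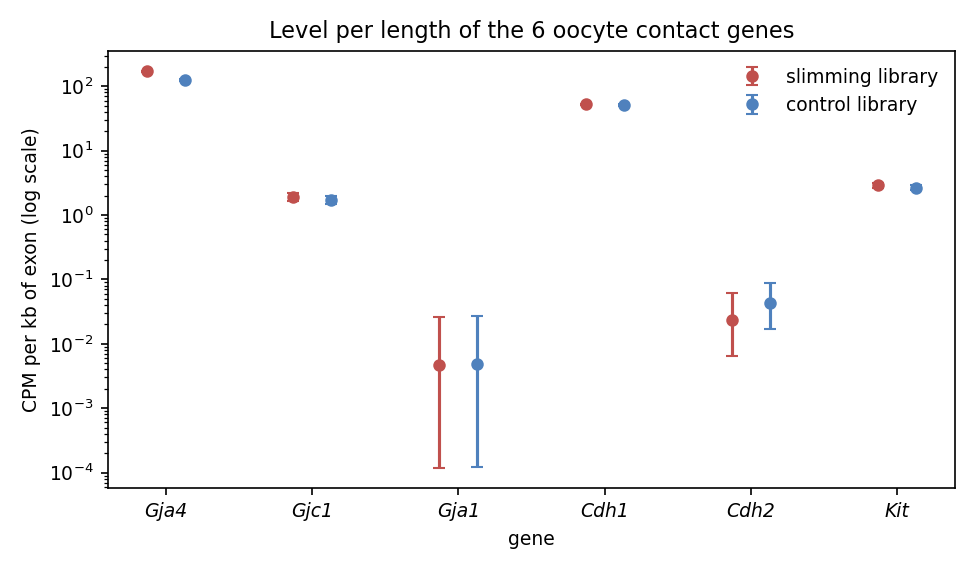
Points give the level of each contact gene in CPM per kb of exon (log scale) in the slimming (red) and control (blue) libraries, and bars are exact 95% Poisson intervals of the counts. Gja4 and Cdh1 lie above 50 CPM per kb in both libraries, Kit and Gjc1 between 1.72 and 2.88, and Gja1 and Cdh2 at 0.0429 or less.

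The order of Gja4 and Cdh1 by count differed between the libraries. There were 1.20 Gja4 counts per Cdh1 count in slimming oocytes and 0.902 in control oocytes. This ratio was 1.33 times as large in slimming oocytes (interval 1.26 to 1.41), a comparison that does not involve the scaling between libraries. It does not remove the length trend, as Gja4 has 1685 exon bases and Cdh1 4574. Against Kit, the ratio of Gja4 counts was 11.2 in slimming oocytes and 8.82 in control oocytes, 1.27 times as large in slimming oocytes (1.12 to 1.45). Against Gjc1 it was 29.8 in slimming oocytes and 24.4 in control oocytes, and the interval of 0.987 to 1.51 included no difference. Against Cdh4 it was 4.37 in slimming oocytes and 4.14 in control oocytes, 1.05 times as large in slimming oocytes, and the interval of 0.963 to 1.16 included no difference. Cdh1 counts per Kit count were 9.34 in slimming oocytes and 9.78 in control oocytes, 0.956 times as large in slimming oocytes (0.838 to 1.09).

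**Figure D3:**
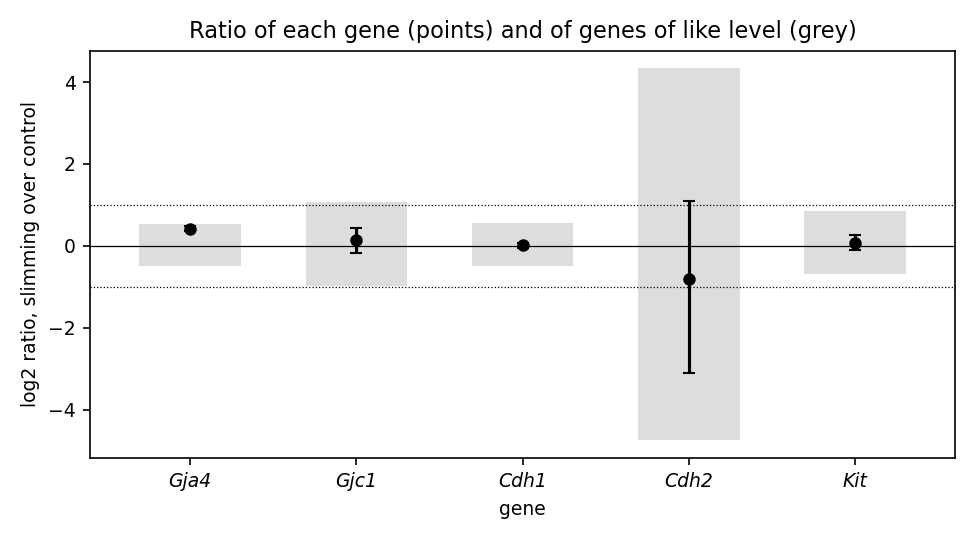
Points give the log2 ratio of slimming over control for 5 contact genes, bars their 95% counting intervals, and grey boxes the middle 90% of log2 ratios among genes with a mean level within 2-fold of the gene. Dotted lines mark 2-fold, and all 5 points lie inside their boxes. Gja4, at 0.42, lies nearest to the upper edge of its box, at 0.52.

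The 5 genes with a ratio lay within the middle 90% of log2 ratios of genes of like level. That range was -0.47 to 0.53 around Cdh1, -0.67 to 0.82 around Kit and -0.96 to 1.05 around Gjc1. By nearness of the log2 CPM values over the 2 libraries, Gja4 was most like Actn4, an actin cross-linker, at 293 CPM in slimming oocytes and 210 CPM in control oocytes. Cdh1 was most like H13, an intramembrane protease, at 244 CPM in slimming oocytes and 232 CPM in control oocytes. Kit was most like Gtdc1, at 25.4 CPM in slimming oocytes and 23.8 CPM in control oocytes. Gjc1 was most like Gadd45a, a stress-response gene, at 10.02 CPM in slimming oocytes and 8.89 CPM in control oocytes. Only expressed genes were compared, and Gja1 and Cdh2 lie far below their levels, so no gene is named for them.

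**Figure D4:**
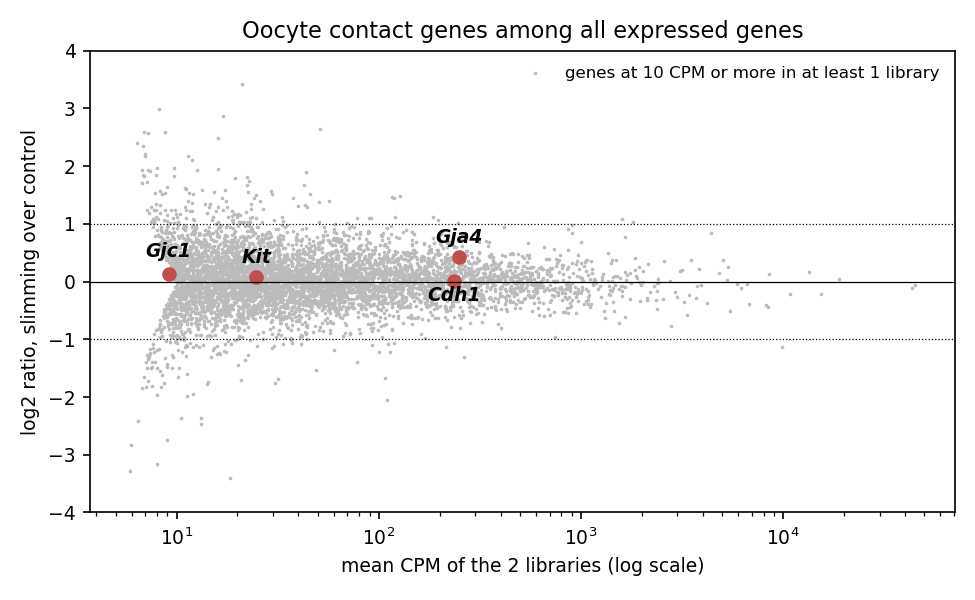
Grey points show the log2 ratio of slimming over control against the mean CPM (log scale) of the 5714 expressed genes, and red points show Gja4, Cdh1, Kit and, just below the threshold for expressed genes, Gjc1. Dotted lines mark 2-fold. Gja4 stands at 0.42 among genes scattered on both sides of 0, and Cdh1, Kit and Gjc1 lie between 0.01 and 0.13.

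Inside the cell, cadherins bind catenins, and the most abundant catenins, Ctnna1 and Ctnnb1, were lower in slimming oocytes. Of 23 cadherin, catenin and related genes looked up, 9 were expressed, and 3 had a counting interval above and 3 below a ratio of 1, beside 37.7% above and 35.1% below among all expressed genes. Ctnna1 (alpha-catenin), which links the complex to actin, had 772 CPM in slimming oocytes and 931 CPM in control oocytes, a log2 ratio of -0.30 (-0.33 to -0.27). Ctnnb1 (beta-catenin), which binds the cadherin tail and also acts in Wnt signalling, had 622 CPM in slimming oocytes and 778 CPM in control oocytes, a log2 ratio of -0.35 (-0.39 to -0.32). Both of these catenins were below their control levels, while the interval of Cdh1 included equal levels. The spread of genes of like level was not computed for them, and their intervals cover counting error only. The median log2 ratio of the 9 expressed genes was 0.01, against 0.02 for all expressed genes, and 0 of them were 2-fold apart.

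Of 39 genes of Kit signalling looked up, Kit itself and Kitl included, 24 were expressed, Kit among them. Their median log2 ratio was -0.03. Of these, 6 had an interval above and 11 an interval below a ratio of 1, and 0 were 2-fold apart, beside 37.7%, 35.1% and 4.67% of all expressed genes. 1 of the 24 was called expressed through its control level alone. The highest levels belonged to Foxo1 and Foxo3, transcription factors that Akt kinases hold out of the nucleus, and to the kinase Akt1. Foxo3, which keeps primordial follicles dormant in mice, had 867 CPM in slimming oocytes and 1069 CPM in control oocytes (log2 ratio -0.33). Foxo1 had 3323 CPM in slimming oocytes and 2865 CPM in control oocytes (log2 ratio 0.18). Akt1 had 432 CPM in slimming oocytes and 459 CPM in control oocytes (log2 ratio -0.12). Large ratios in opposite directions were those of Hras, a small GTPase, and of Pik3ca, a catalytic subunit of phosphoinositide 3-kinase. Hras had 71.2 CPM in slimming oocytes and 43.6 CPM in control oocytes (0.68), and Pik3ca 63.2 CPM in slimming oocytes and 94.6 CPM in control oocytes (-0.61).

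Of 31 scaffolds and partner molecules of cell contacts looked up, 17 were expressed. Of these, 4 had an interval above and 11 an interval below a ratio of 1, beside 37.7% and 35.1% of all expressed genes, and 12 of 17 lay below the median of all expressed genes. The 17 include Magi1 and Magi3, expressed through their control levels alone, and Efnb2, expressed through its slimming level alone. Their median log2 ratio was -0.28, and its 95% order-statistic interval, -0.47 to 0.05, included 0. These genes are long, and 14 of the 17 were in the longest 2 of the 5 length groups, whose medians were -0.03 and -0.08. Rdx (radixin), which ties membrane proteins to actin and was the most abundant, had 1338 CPM in slimming oocytes and 1454 CPM in control oocytes (-0.15). Afdn (afadin), the partner of nectins, had 291 CPM in slimming oocytes and 322 CPM in control oocytes (-0.18), and Daam1, a formin that assembles actin filaments, 160 CPM in slimming oocytes and 217 CPM in control oocytes (-0.47). Tjp1 (ZO-1), which binds the tails of several connexins, had 10.02 CPM in slimming oocytes and 14.0 CPM in control oocytes, a log2 ratio of -0.52 (-0.78 to -0.25). It is named after its value was seen. Among the expressed genes of this list, those with the largest ratios went the other way: Myo10, a motor of filopodia, had 20.4 CPM in slimming oocytes and 10.8 CPM in control oocytes (0.88). Efnb2, an ephrin ligand, stood at 0.80 and Jam3, a junctional adhesion molecule, at 0.71. Efnb2 had 10.3 CPM in slimming oocytes and 5.78 CPM in control oocytes. Below 10 CPM, 12 more genes of the list had counts, with ratios in both directions. They include, named after their values were seen, Fscn1 (fascin), which bundles the actin of filopodia, with 21 counts in slimming oocytes and 58 in control oocytes (-1.52), and Nectin2, with 36 counts in slimming oocytes and 92 in control oocytes (-1.42). On the higher side were Jam2 (1.28), Msn (1.19) and Cd9 (0.77).

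Among enzymes and carriers that modify, move or degrade junction proteins, 13 of 21 genes looked up were expressed, with a median log2 ratio of -0.05. Of these, 4 had an interval above and 5 an interval below a ratio of 1, near the 37.7% and 35.1% of all expressed genes, and 1 was called expressed through its control level alone. Mapk3 (ERK1), a kinase that can phosphorylate connexin 43 and is active at metaphase II, was the 1 gene 2-fold apart, beside 4.67% of all expressed genes. It had 123 CPM in slimming oocytes and 56.1 CPM in control oocytes, 2.14-fold higher (log2 ratio 1.10, interval 1.00 to 1.20). Mapk3 is also short, with 2257 exon bases, and with the median of its length group subtracted its log2 ratio was 0.95, short of 2-fold. Stub1, a ubiquitin ligase that works with chaperones, had 55.5 CPM in slimming oocytes and 31.4 CPM in control oocytes (0.79). Adam10, the protease that cuts both E-cadherin and N-cadherin, was nearly equal at 149 CPM in slimming oocytes and 151 CPM in control oocytes (-0.05). Smurf2, a ubiquitin ligase, stood at -0.13, and Erp29, a chaperone of the endoplasmic reticulum, at 0.23.

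**Figure D5:**
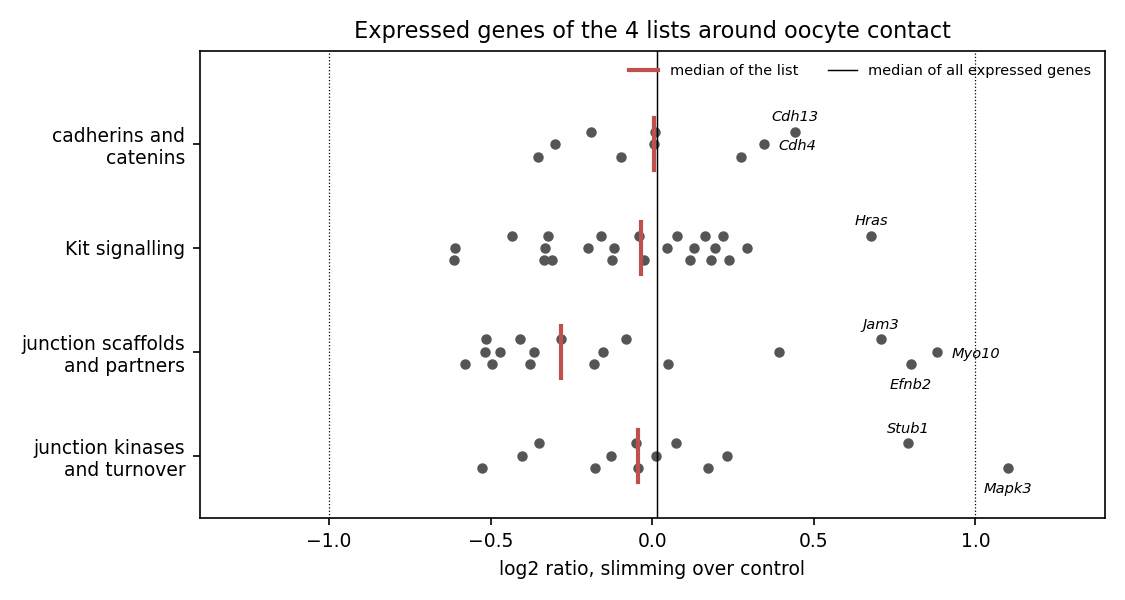
Each point is an expressed gene of 1 of 4 lists, placed by its log2 ratio of slimming over control, with names given to those of the 3 largest absolute ratios of each list that are above 0. Red bars mark list medians, the black line the median of all expressed genes (0.02) and dotted lines 2-fold. The median of the junction scaffolds and partners lies at -0.28, and Mapk3 alone lies beyond 2-fold.

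Several of these genes share exon sequence with another annotated gene, and with the use of strand not given their counts are uncertain. Among the genes named, this holds for Ctnnb1, Ctnna1, Foxo1, Afdn, Jam3, Smurf2, Stub1, Erp29, Nectin2, Ezr, Msn and Cd9. It also holds for the markers Gli1, Foxl2, Has2 and Egfl7, and for Actn4, H13, Gtdc1 and Gadd45a. None of the 6 contact genes overlaps another exon in the annotation used.

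Since Gja1, Cdh2 and Kitl are also granulosa genes, and Kit and Gja4 occur in other cells of the ovary, markers of those cells were read beside them. Of 20 cumulus and granulosa markers, 10 had no counts, among them Amh, Fshr and Foxl2, and the list summed to 533 CPM in slimming oocytes and 533 CPM in control oocytes. Serpine2 carried most of it at 491 CPM in slimming oocytes and 475 CPM in control oocytes, and without it the sum was 41.3 CPM in slimming oocytes and 58.3 CPM in control oocytes, mainly Cyp19a1 and Nr5a2. In that list 4 genes had 0 counts in slimming oocytes and at least 1 count in control oocytes, among them Inha, an inhibin subunit, with 63 counts in control oocytes. Of all 18017 genes with counts, 2186 had 0 counts in slimming oocytes only and 1551 had 0 counts in control oocytes only. Hsd3b1, a steroid-making enzyme, had 1 count in slimming oocytes and 72 in control oocytes. Inha and Hsd3b1 were named after their values were seen. Has2, of the same list, went the other way, with 5 counts in slimming oocytes and 2 in control oocytes. Endothelial markers, since endothelium also makes Gja4, summed to 74.8 CPM in slimming oocytes and 79.7 CPM in control oocytes, nearly all from Pecam1, Flt1 and Kdr, while Cdh5 and Emcn had no counts. Tek had 8 counts in slimming oocytes and 49 in control oocytes, and Tie1 0 in slimming oocytes and 15 in control oocytes. Both were named after their values were seen. Pecam1 went the other way, with 748 counts in slimming oocytes and 675 in control oocytes. So did Egfl7, with 5 in slimming oocytes and 1 in control oocytes. Mast and immune cell markers, since mast cells carry Kit, summed to 25.8 CPM in slimming oocytes and 43.6 CPM in control oocytes, led by H2-Aa, Cd68 and Laptm5, and the mast cell genes Mcpt4, Tpsb2 and Ms4a2 had no counts. The mast cell gene Cpa3 had 1 count in slimming oocytes and 25 in control oocytes. Fcer1g had 0 in slimming oocytes and 62 in control oocytes, and Tyrobp 0 in slimming oocytes and 57 in control oocytes. Cpa3, Fcer1g and Tyrobp were named after their values were seen. Laptm5 went the other way, with 86 counts in slimming oocytes and 75 in control oocytes. Oviduct epithelium markers, since that epithelium carries Cdh1, summed to 6.44 CPM in slimming oocytes and 13.1 CPM in control oocytes, mostly Tppp3, with Dnah5 and Epcam next. Theca and interstitial markers summed to 2.86 CPM in slimming oocytes and 1.24 CPM in control oocytes, with no counts for Cyp17a1. Acta2 had 43 counts in slimming oocytes and 0 in control oocytes, and without it the sum, mainly Gli1 and Ptch1, was 0.812 CPM in slimming oocytes and 1.24 CPM in control oocytes. With all genes, the theca and interstitial sum was higher in slimming oocytes and the granulosa sums were equal. Without its most abundant gene, the sum of each of these 5 lists was lower in slimming oocytes, in some lists from few counts. The oocyte markers without Gdf9 went the other way, with 18144 CPM in slimming oocytes and 14935 CPM in control oocytes. The part of other cells in the levels of the contact genes was not tested.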

How the data were processed

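Counts per Ensembl gene of 2 libraries were used as deposited, the slimming library first per the file headers. The authors made these raw counts from oligo(dT)-primed, PCR-amplified cDNA sequenced on a SOLiD 4 instrument, per the labels' protocols, and the submitters' processing notes name genome build mm9. Not given in the sources used here were the aligner, the counter, strand use and how reads matching several places were handled. The deposited table also holds log2 ratios, a score (z-score), and a p-value and q-values made by the authors from the 2 libraries. No molecular identifiers are named, so intervals cover counting error only.

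Symbols came by identifier from GENCODE vM21 (GRCm38), used also for exon length and overlap, and 16913 genes matched. Blank counts (18210 genes) were read as no count. TMM scaling (edgeR 4.0.16, R 4.3.3) gave factors of 1.01 for slimming and 0.989 for control oocytes. Log2 ratios, slimming over control, were taken with 0.5 added to each count and with exact Clopper-Pearson intervals. CPM used total counts. Alternatives were other scalings (DESeq2 1.42.0 size factors among them), added numbers, filters and lengths. The length correction and shares per base were chosen after the data were seen. Intervals were tested on simulated counts with Poisson error only. That test cannot show how they cover variation from PCR or between oocytes. Python 3.11.15 with scipy 1.17.1 was used.

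Named genes were the 6 contact genes and Kitl, the 3 most abundant and the 3 expressed genes of largest absolute log2 ratio of each list, the 3 marker genes with most counts, and the expressed gene nearest in level to each contact gene. Of these, 2 genes are not reported here. Others were chosen after their values were seen. The contact genes and the lists were chosen with earlier results of these data known.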

Additional observations from a re-analysis of the deposited data

How the results depend on the processing

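The log2 ratios of Gja4, Gjc1, Cdh1, Cdh2 and Kit stayed within their counting intervals under each other setting tried (3 other scalings, 1 or 5 added to each count, and the authors' deposited ratio). Gja4 ranged from 0.38 to 0.45 over these, and Cdh1 from -0.04 to 0.04. With the length trend removed, a choice made after the data were seen, Gja4 moved to 0.27 and Mapk3 to 0.95, no longer 2-fold. Gja1 had too few counts for any ratio. With genes at 1 CPM or more, 1038 were at least 2-fold higher and 987 lower in slimming oocytes, and with no filter 3186 were higher and 3774 lower, against 156 higher and 111 lower at 10 CPM. Medians of the 4 lists stayed within their intervals, and the order of the 6 genes per length was the same with median transcript length. Counted per base of exon, the Gja4 share of connexins was 96.8% in slimming oocytes and 96.0% in control oocytes, the Gjc1 share 1.09% in slimming oocytes and 1.32% in control oocytes, and the Cdh1 share of cadherins 79.0% in slimming oocytes and 81.4% in control oocytes. No paired analysis was possible because each group is 1 library. For the same reason no replicate could be left out. Depth limits Gja1 and Cdh2, which had at most 7 counts in a library.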

Other observations

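More genes were missing from the slimming than from the control library. At 20 counts or more in the other library, 106 genes had 0 counts in slimming oocytes and 58 had 0 counts in control oocytes. Among contact partners this held for Ezr (ezrin), a relative of radixin, with 0 counts in slimming oocytes and 21 counts in control oocytes, a gene chosen after its value was seen. Among connexins, Gjd4 had 0 counts in slimming oocytes and 9 in control oocytes, and Gjb2 (connexin 26) had 14 counts in slimming oocytes and 4 in control oocytes. Cdh6 had 14 counts in slimming oocytes and 0 in control oocytes. These 4 genes lie far below 10 CPM.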
